A study of Mus musculus with 10 samples.

Results

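The genes described here encode ion channels, their accessory subunits, water channels and ion pumps. They were chosen by name. A gene was a member when it was the only gene of a probe set and its symbol was Cftr or began with Kcn, Cacn, Scn, Clcn, Clca, Clic, Trpc, Trpm, Trpv, Ano and a digit, Gabr, Gria, Grik, Grin and a digit, P2rx, Aqp, Atp1a, Atp1b, Atp2a, Atp2b, Atp6v or Fxyd. This gave 41 genes on 63 probe sets, out of 2560 named genes and 3663 probe sets in the table. They were 12 potassium channel genes, 3 calcium channel genes, 1 sodium channel gene, 8 genes of the chloride channel group, 5 TRP channel genes, 3 transmitter- or ATP-gated channel genes, 2 water channel genes, 3 genes of the sodium-potassium pump and its FXYD regulators, and 4 genes of the proton pump. No gene named Cftr, Gabr, Grin, Atp1a, Atp2a or Atp2b was found by the rule.

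RNA was measured on 10 Affymetrix mouse arrays of mammary cells from virgin female FVB mice, 6 to 8 weeks old and without any treatment or transgene named in the labels. Cells negative for CD45, CD31 and Ter119 (and, per the methods of the study, CD140α) were sorted in 2 passes on CD24, CD49f and Thy-1 into 5 populations of 2 arrays each. The luminal populations were CD24medCD49f-/low and CD24highCD49fmed (4 arrays), and the basal populations were CD24medCD49fmed, Thy-1+CD24medCD49fhigh and Thy-1-CD24medCD49fhigh (6 arrays). The labels write CD24medCD49fmed where the text of the study has a CD24lowCD49fmed myoepithelial gate, and nothing says whether replicate arrays stem from different animals. The p-values therefore describe the scatter among these arrays, which may be technical.

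Ion channels open to let ions run down their gradients, pumps spend ATP to build those gradients, and water channels let water follow the salt. In the mammary gland, luminal cells face the lumen and move salt and water across the epithelium. Myoepithelial cells of the basal layer lie outside them and contract like smooth muscle. The study keeps its CD24medCD49fhigh cells, described as enriched for cells that regrow mammary ducts on transplantation, apart from the myoepithelial gate. Contraction of smooth muscle depends on calcium entry through voltage-gated calcium channels, and potassium channels oppose it by holding the membrane voltage down.

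Every value is a log2 intensity centred on the mean of its probe set across the 10 arrays and averaged over the probe sets of a gene. A value of 1 therefore means 2 times the gene's own (geometric) mean over the arrays, and neither the abundance of a gene nor the order of different genes can be read from it. The table holds only probe sets that differed at least 4-fold between some arrays, so genes that vary little are not in it. Array medians ran from -0.43 to 0.17, and the lowest was that of CD24medCD49f-/low replicate 1. The arrays of CD24medCD49f-/low stood apart from each other (r = 0.364 across probe sets), and replicate 1 was closer to CD24highCD49fmed replicate 1 (r = 0.760). Replicate 2 was closer to CD24highCD49fmed replicate 2 (r = 0.596). In the same way Thy-1+CD24medCD49fhigh replicate 1 was closer to CD24medCD49fmed replicate 2 (r = 0.836) than to its partner (r = 0.449). Further basal arrays were closer to another basal population than to their partner. They were CD24medCD49fmed replicate 2 (0.836 against 0.669) and 3 (0.681 against 0.669), Thy-1+CD24medCD49fhigh replicate 2 (0.637 against 0.449) and Thy-1-CD24medCD49fhigh replicate 1 (0.753 against 0.647). Results that turn on the CD24medCD49f-/low arrays or on Thy-1+CD24medCD49fhigh replicate 1 are given with and without them.

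The sorted cells carried the markers of their names. All 10 basal markers of a list that included Krt5, Krt14, Trp63 and Acta2 were higher in the basal populations, with a median log2 difference of 3.50. Of the 13 luminal markers found, 11 were lower there and 2 were not called, with a median difference of -2.16. Markers of other cells differed between the sides too, most of them higher in basal cells. Of 8 Schwann cell and nerve genes in the table, of 12 listed, 7 were higher and 1 was lower in basal cells, and the mean of the list ran from -0.96 to -0.52 on the luminal arrays, from 0.70 to 0.90 in CD24medCD49fmed and Thy-1+CD24medCD49fhigh and from -0.08 to 0.03 in Thy-1-CD24medCD49fhigh. Of 5 pericyte genes in the table, of 8 listed, 4 were higher in basal cells. The corresponding counts were 5 of 6 for fibroblast genes, of 10 listed, with 1 lower, and 4 of 7 for epidermal keratinocyte genes, of 10 listed, with none lower. Pericyte means ran from -0.98 to -0.24 on luminal arrays, from 0.22 to 0.37 in CD24medCD49fmed, from 0.99 to 1.04 in Thy-1+CD24medCD49fhigh and from -0.09 to 0.03 in Thy-1-CD24medCD49fhigh. Fibroblast means ran from -1.05 to -0.58, from 0.51 to 0.86, from 1.24 to 1.33 and from -0.31 to -0.29 in the same order. Epidermal means ran from -0.69 to -0.52, from -0.01 to 1.67, from 0.02 to 2.19 and from -0.84 to -0.56. Of the remaining lists, the leukocyte gene Lcp1 was lower in basal cells (-1.76), erythroid Hba-a2 was higher (1.73), and of 3 adipocyte genes 2 were higher and Lpl was lower (-1.11). No endothelial or skeletal muscle marker of the lists was in the table. The part of these cells in the results below was not tested, and in sorted bulk RNA fewer cells of a type and less RNA per cell cannot be told apart.

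Most of the 41 channel and pump genes in the table differed in relative RNA level between basal and luminal cells, as did most features of the table. The 4-fold filter was applied to these same arrays, so a high share called is partly built in. The p-values do not allow for that filter, and nothing is shown for channel and pump genes that it removed. Scn7a, the calcium channel subunits, most of the potassium channels, Trpm3 and Trpv6 were higher in basal cells, while Trpc6, Kcnn4, most of the chloride channel group, Aqp5, Atp1b1 and the proton pump genes called were lower. Of the 41 genes 34 were called at an adjusted p under 0.05 (82.9%), against 76.0% of the 2932 features tested, so the share called was near that of the table. In detail 18 were higher in basal cells (43.9%, against 34.7% of all features) and 16 were lower (39.0%, against 41.3%). The 10 arrays did not overlap between the sides for 26 genes (63.4%, against 49.0%), 17 of them higher (25.2% of all features) and 9 lower (23.8%) in basal cells. The median log2 difference over the 41 genes was 0.53, beside -0.11 over all features, and the median absolute difference was 1.45, beside 1.20.

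**Figure D1:**
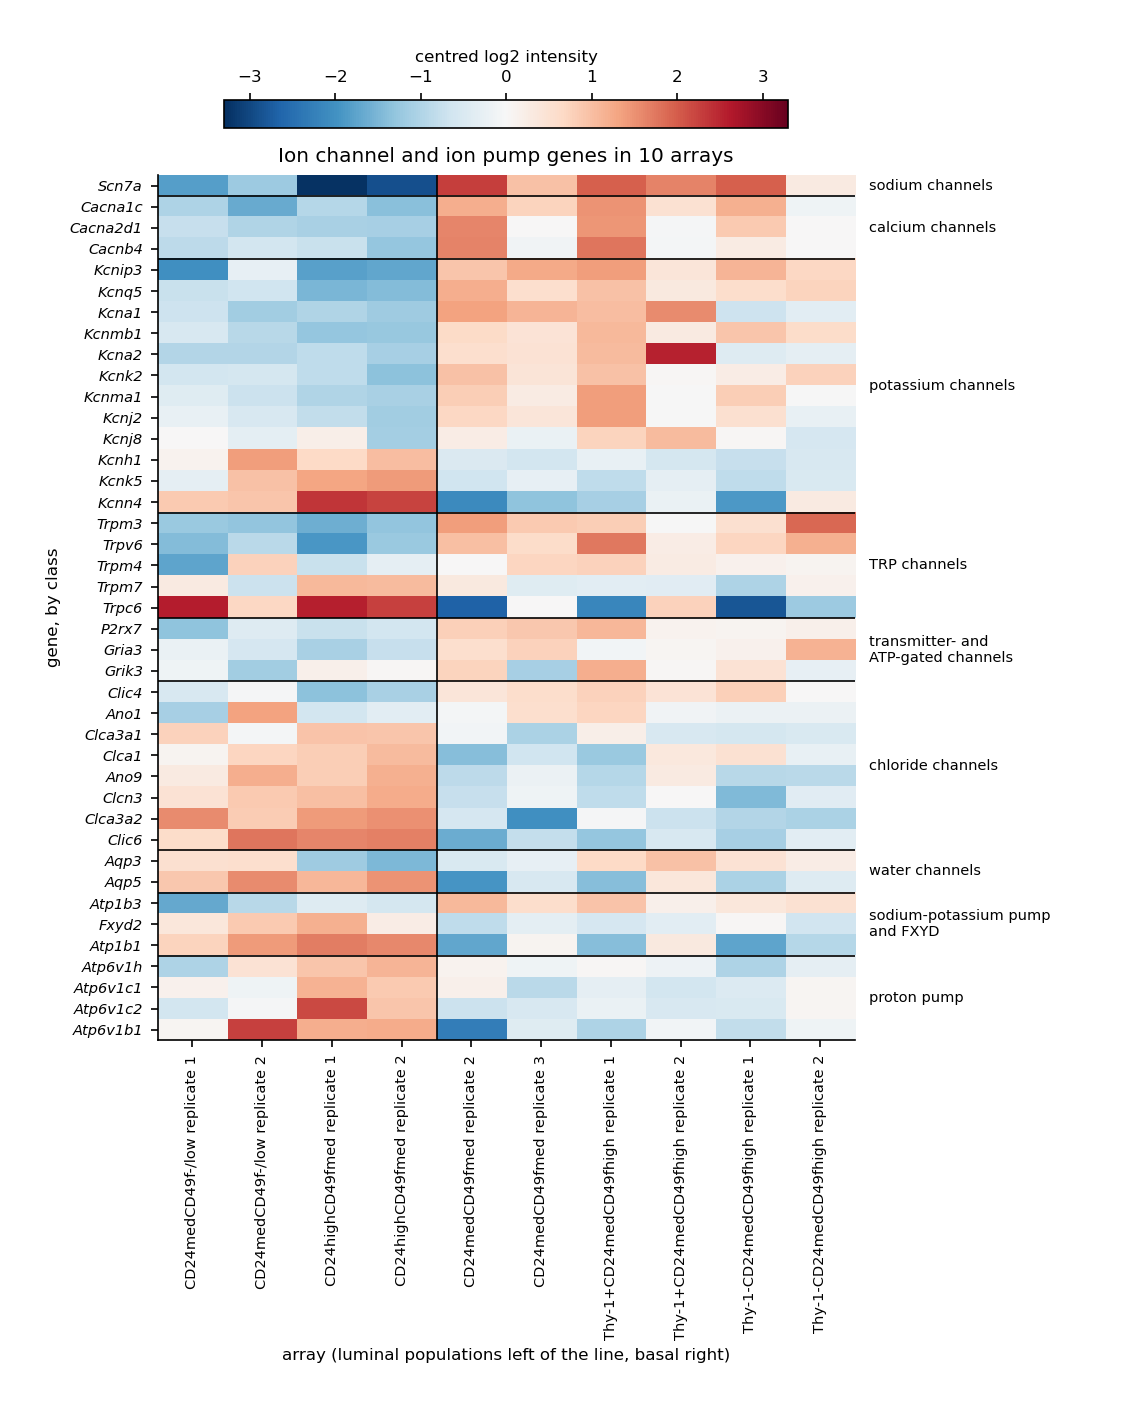
Centred log2 intensity (colour, from blue for low to red for high) of the 41 genes, in rows by class, on the 10 arrays, in columns with the 4 luminal arrays left of the vertical line and the 6 basal arrays right of it. Scn7a and the 3 calcium channel genes turn from blue toward red across the line, and Clic6, Clca3a2 and Aqp5 from red toward blue.

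**Figure D2:**
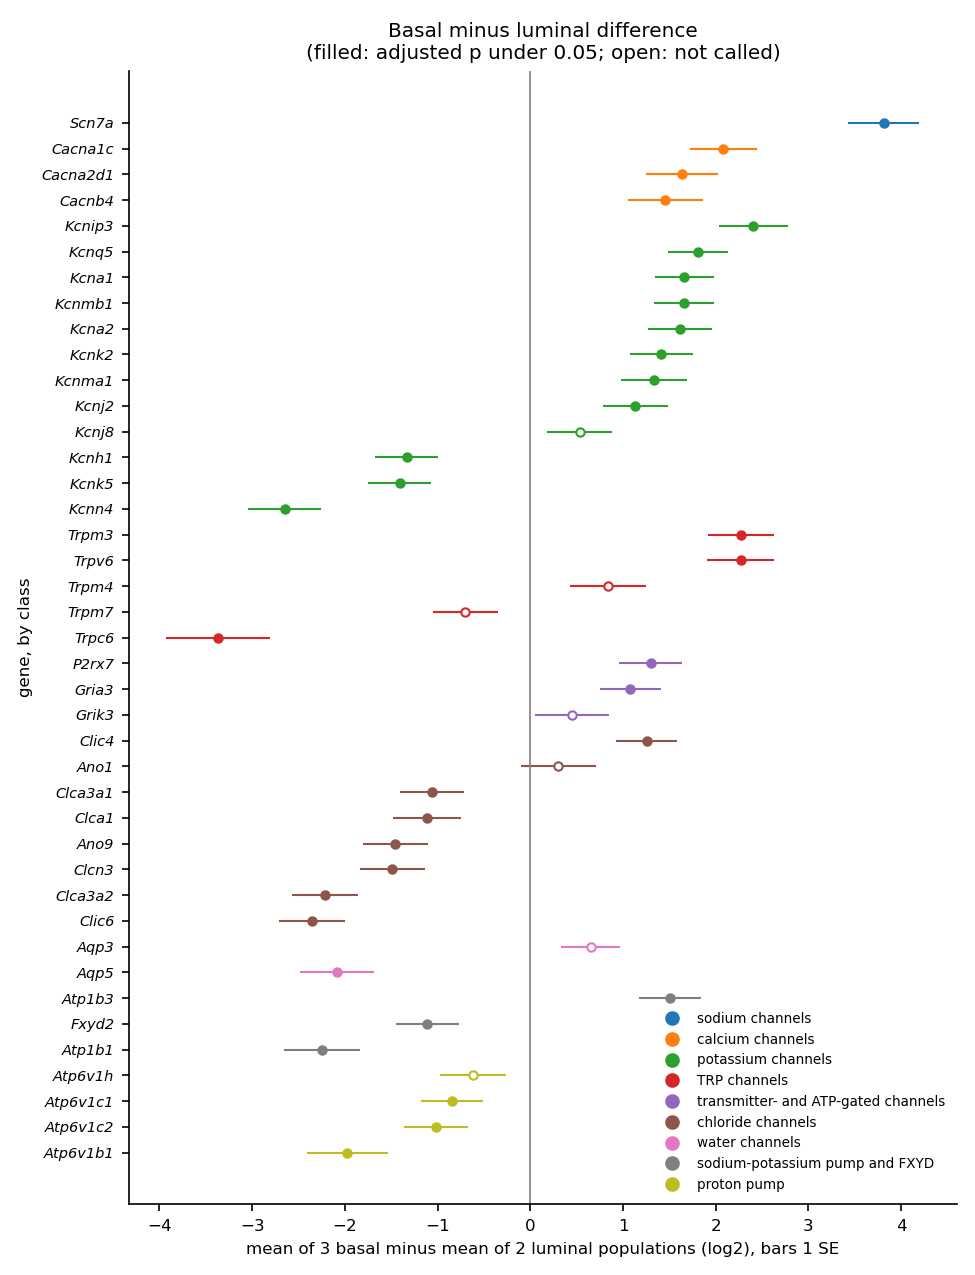
Difference in log2 intensity between the mean of the 3 basal populations and the mean of the 2 luminal populations for each of the 41 genes, grouped and coloured by class, with bars of 1 SE. Filled points are the 34 genes called at an adjusted p under 0.05 and open points the other 7, and differences run from -3.37 for Trpc6 to 3.81 for Scn7a.

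The bases in front of the transcription start are shown for 6 of the genes called, because each holds letters of a motif that was searched for. RefSeq promoters (GRCm38.p6) were found for 32 of the 41 genes, 46 sequences in all. Ano9, Atp6v1c1, Atp6v1h, Clca1, Clic6, Fxyd2, Gria3, Kcna1 and Trpm4 had no entry. The 250 bases before each start were searched on both strands for 8 motifs, which were picked after the values of the genes were known. Capitals mark GGAATG, letters bound by TEAD factors, in the first pair, TGACTCA or its reverse complement TGAGTCA, letters bound by AP-1 factors, in the next 3, and TGTTTAC, letters bound by forkhead factors, in the last. Each sequence runs 5′ to 3′ on the strand of its gene.
Scn7a (chr2:66784911-66785160, minus strand): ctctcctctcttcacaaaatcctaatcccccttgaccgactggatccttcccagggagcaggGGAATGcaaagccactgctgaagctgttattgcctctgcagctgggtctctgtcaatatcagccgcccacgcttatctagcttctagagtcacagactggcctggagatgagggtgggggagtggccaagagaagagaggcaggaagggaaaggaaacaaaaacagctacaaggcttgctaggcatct
Kcnn4 (chr7:24370013-24370262, plus strand): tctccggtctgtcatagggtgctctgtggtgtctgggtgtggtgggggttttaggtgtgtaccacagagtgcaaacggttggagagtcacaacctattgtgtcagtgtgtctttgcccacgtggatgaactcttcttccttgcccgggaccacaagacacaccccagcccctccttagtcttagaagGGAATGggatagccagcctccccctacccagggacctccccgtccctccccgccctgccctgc
Kcnip3 (chr2:127522095-127522344, minus strand): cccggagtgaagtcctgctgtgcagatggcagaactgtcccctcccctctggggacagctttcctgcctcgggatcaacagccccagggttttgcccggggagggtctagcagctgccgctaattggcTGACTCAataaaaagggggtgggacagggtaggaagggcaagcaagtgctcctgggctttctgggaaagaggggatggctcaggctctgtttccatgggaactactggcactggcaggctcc
Kcnk2 (chr1:189344193-189344442, minus strand): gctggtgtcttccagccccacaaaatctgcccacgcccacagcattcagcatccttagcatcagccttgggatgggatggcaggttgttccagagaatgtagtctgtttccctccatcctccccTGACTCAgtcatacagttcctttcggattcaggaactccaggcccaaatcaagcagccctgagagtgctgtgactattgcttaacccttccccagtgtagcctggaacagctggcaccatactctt
P2rx7 (chr5:122643677-122643926, plus strand): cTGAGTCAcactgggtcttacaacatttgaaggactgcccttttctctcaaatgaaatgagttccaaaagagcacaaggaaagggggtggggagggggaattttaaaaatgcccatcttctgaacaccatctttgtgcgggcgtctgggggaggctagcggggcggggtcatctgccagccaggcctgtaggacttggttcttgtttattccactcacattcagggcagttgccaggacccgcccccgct
Atp6v1b1 (chr6:83742767-83743016, plus strand): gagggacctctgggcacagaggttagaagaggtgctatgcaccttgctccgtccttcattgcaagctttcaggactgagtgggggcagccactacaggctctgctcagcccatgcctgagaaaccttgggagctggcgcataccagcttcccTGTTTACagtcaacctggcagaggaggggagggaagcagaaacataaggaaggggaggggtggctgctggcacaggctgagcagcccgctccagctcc

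GGAATG was in promoters of Scn7a, Kcnn4, Clcn3 and Kcnk2, with 2 of them called higher and 2 called lower. It was in 12.6% of all 32851 promoters of this length and in 8.70% of the 46 promoters of these genes. TGACTCA was in promoters of Kcnip3, Kcnk2 and P2rx7, in 4.46% of all promoters and in 6.52% of the 46. These 3 genes were higher in basal cells, as were 18 of the 34 genes called. The other matches were single: TGTTTAC in Atp6v1b1 (3.17% of all promoters), TGTTTGC in Trpm3 (4.30%), TATAAA in Aqp3 (12.4%) and the CArG box, the site of serum response factor, in Trpc6 (1.47%). CCGGAAG, letters bound by ETS factors, was in promoters of Atp1b3 and Kcnk2 (6.91%) and AACCGGTT in none (0.116%). CCGGAAG and GGAATG share the letters GGAA, and TGTTTAC and TGTTTGC differ by a letter. These matches describe letters only.

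Scn7a, a sodium channel relative known for sensing extracellular sodium in glia, was the only sodium channel gene and had the largest difference of the 41. Its values were -3.26 and -2.89 in CD24highCD49fmed, -1.81 and -1.19 in CD24medCD49f-/low, 2.29 and 0.95 in CD24medCD49fmed, 1.98 and 1.65 in Thy-1+CD24medCD49fhigh, and 1.98 and 0.30 in Thy-1-CD24medCD49fhigh. Every basal array was above every luminal array. The difference was 3.81 ± 0.38 on the log2 scale (SE), or 14.0-fold (limma, adjusted p = 8.66e-08). Its 3 probe sets gave 2.95, 3.48 and 5.0. In the order of population means Thy-1+CD24medCD49fhigh, CD24medCD49fmed and Thy-1-CD24medCD49fhigh (1.81, 1.62 and 1.14) lay closer together than the spread within populations (SD 0.72), whereas CD24medCD49f-/low (-1.50) and CD24highCD49fmed (-3.07) did not.

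All 3 voltage-gated calcium channel genes were higher in basal cells (34.7% of all features), and none of their arrays overlapped (25.2% of all features). Cacna1c encodes the pore of the L-type channel of heart and smooth muscle. It ran from -0.14 through a median of 0.96 to 1.49 on the basal arrays, and was -1.02 and -1.66 in CD24medCD49f-/low and -0.93 and -1.39 in CD24highCD49fmed. The difference was 2.08 ± 0.36 (adjusted p = 6.14e-05). Cacna2d1, the α2δ subunit that brings channels to the surface, differed by 1.64 ± 0.39 (adjusted p = 0.00107), with its 3 probe sets between 1.38 and 1.83. Cacnb4, a cytoplasmic β subunit, differed by 1.45 ± 0.40 (adjusted p = 0.00348). The 6 basal arrays were unequal for these genes. CD24medCD49fmed replicate 2 and Thy-1+CD24medCD49fhigh replicate 1 held 1.63 and 1.76 of Cacnb4, and their partners -0.13 and -0.06.

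Of the 12 potassium channel genes 8 were higher in basal cells, 3 were lower and Kcnj8 was not called, with a median difference of 1.37. Over all features 34.7% were higher and 41.3% lower. Kcnip3, a calcium-binding subunit of A-type channels that also acts in the nucleus, differed most among those higher. It ran from 0.39 through a median of 1.03 to 1.38 on the basal arrays and was -2.03 and -0.26 in CD24medCD49f-/low and -1.78 and -1.71 in CD24highCD49fmed. The sides did not overlap, although the CD24medCD49f-/low arrays lay far apart. Its difference was 2.41 ± 0.37 (adjusted p = 1.80e-05), between 1.96 and 2.85 with an array left out.

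Both subunits of the large-conductance calcium-activated potassium channel were higher in basal cells. Kcnmb1, the β subunit typical of smooth muscle, ran from 0.30 through 0.62 to 1.06 on the basal arrays, and was -0.53 and -0.91 in CD24medCD49f-/low and -1.29 and -1.24 in CD24highCD49fmed. The sides were clear of each other, and the difference was 1.65 ± 0.32 (adjusted p = 0.000203), with 1.64 and 1.67 for its 2 probe sets. Kcnma1, the pore, differed by 1.33 ± 0.36 (adjusted p = 0.00265). Against CD24medCD49f-/low alone Kcnma1 differed by 1.09 and was not called (adjusted p = 0.0511).

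Voltage-gated pores of the Kcnq and Kcna families were also higher on the basal side. Kcnq5, a slow M-type pore, ran from 0.33 through 0.65 to 1.20 on basal arrays, and was -0.73 and -0.66 in CD24medCD49f-/low and -1.52 and -1.44 in CD24highCD49fmed. It differed by 1.81 ± 0.32 (adjusted p = 8.34e-05), and no array overlapped. Kcna1, a Shaker-type pore known from axons, ran from -0.67 through 1.06 to 1.56 on basal arrays, and was -0.68 and -1.15 in CD24medCD49f-/low and -0.99 and -1.17 in CD24highCD49fmed. Its lowest basal array lay within 0.1 of the highest luminal one, so the sides only just failed to overlap. The difference was 1.66 ± 0.32 (adjusted p = 0.000184) for Kcna1 and 1.62 ± 0.34 (adjusted p = 0.000454) for Kcna2, its close relative. The basal populations were unequal for both. Kcna1 had a mean of -0.50 in Thy-1-CD24medCD49fhigh, against 1.21 in CD24medCD49fmed and 1.29 in Thy-1+CD24medCD49fhigh. For Kcna2 these means were -0.36, 0.52 and 1.78. Kcnk2, a tandem-pore channel opened by stretch, differed by 1.41 ± 0.34 (adjusted p = 0.00113) and Kcnj2, an inward rectifier that sets the resting voltage, by 1.13 ± 0.35 (adjusted p = 0.00724). The arrays of Kcnj2 overlapped, and with quantile normalisation it was not called (0.82, adjusted p = 0.0602). Kcnj8, the pore of the ATP-sensitive channel of vascular muscle, differed by 0.53 (adjusted p = 0.163).

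Kcnn4, Kcnk5 and Kcnh1 went the other way. Kcnn4, the intermediate-conductance calcium-activated channel of epithelia and blood cells, was 2.36 and 2.22 in CD24highCD49fmed, 0.87 and 0.91 in CD24medCD49f-/low, -2.10 and -1.34 in CD24medCD49fmed, -1.10 and -0.22 in Thy-1+CD24medCD49fhigh, and -1.89 and 0.30 in Thy-1-CD24medCD49fhigh. All luminal arrays were above all basal arrays, and CD24highCD49fmed was highest. The difference was -2.65 ± 0.40, or 6.27-fold lower in basal cells (adjusted p = 1.18e-05). Kcnh1, an ether-a-go-go pore, ran from -0.77 through -0.56 to -0.23 on basal arrays, and was 0.11 and 1.39 in CD24medCD49f-/low and 0.67 and 1.03 in CD24highCD49fmed. It differed by -1.33 ± 0.34 (adjusted p = 0.00189), with no overlap. Kcnk5, an acid-sensitive background channel of transporting epithelia, differed by -1.41 ± 0.34 (adjusted p = 0.00134), but its CD24medCD49f-/low replicate 1 (-0.29) lay among the basal arrays.

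**Figure D3:**
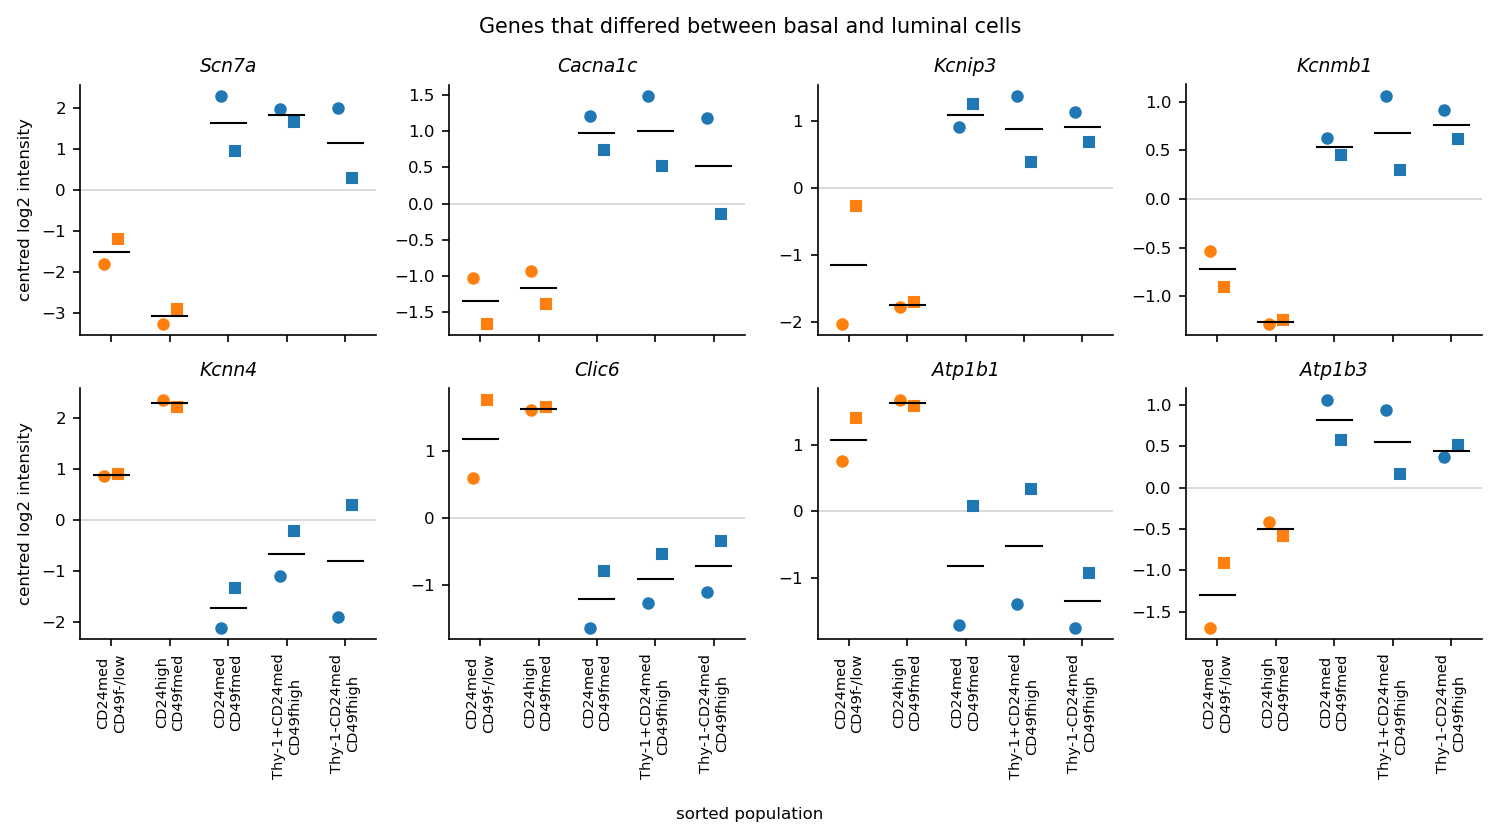
Centred log2 intensity of 8 genes on each array, by sorted population, with luminal populations in orange and basal ones in blue. Circles and squares are the first and the second array of a population and bars their mean. Scn7a, Cacna1c, Kcnip3, Kcnmb1 and Atp1b3 are higher on every basal array than on any luminal array, and Kcnn4, Clic6 and Atp1b1 are lower.

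The TRP channels, cation channels that respond to lipids, heat, calcium or steroids, were divided. Trpm3, opened by heat and neurosteroids, was higher in basal cells, from 0.00 through 0.83 to 1.89, against -1.23 and -1.31 in CD24medCD49f-/low and -1.60 and -1.31 in CD24highCD49fmed. It differed by 2.27 ± 0.35 (adjusted p = 1.83e-05) with no overlap, and its 2 probe sets gave 1.51 and 3.03. Trpv6, the calcium-selective channel of absorbing epithelia, ran from 0.24 through 0.85 to 1.73 on basal arrays, and was -1.43 and -0.88 in CD24medCD49f-/low and -1.92 and -1.22 in CD24highCD49fmed. The difference was 2.27 ± 0.36 (adjusted p = 2.32e-05), again with no overlap. Trpc6, a calcium-permeable channel opened by diacylglycerol, had the largest difference toward luminal cells, -3.37 ± 0.56 (adjusted p = 3.80e-05), but its arrays overlapped. It was 2.58 and 0.69 in CD24medCD49f-/low and 2.56 and 2.25 in CD24highCD49fmed. On the basal side it was -2.68 and 0.02 in CD24medCD49fmed, -2.16 and 0.76 in Thy-1+CD24medCD49fhigh, and -2.82 and -1.20 in Thy-1-CD24medCD49fhigh. One array of Thy-1+CD24medCD49fhigh thus lay above a luminal array, and the difference stayed between -3.85 and -2.88 with any array left out. Trpm4, a calcium-activated channel for sodium and potassium, and Trpm7, a magnesium-permeable channel fused to a kinase, differed by 0.83 (adjusted p = 0.0673) and -0.70 (adjusted p = 0.0746) and were not called. Trpm4 was -1.74 and 0.77 in CD24medCD49f-/low. Without replicate 1 of that population its difference was 0.21 (adjusted p = 0.580), and without replicate 2 it was 1.46 and called (adjusted p = 0.000365). Trpm4 was also called without CD24medCD49fmed replicate 2 (0.95, adjusted p = 0.0487). Trpm7 was called with array medians set to 0 (-0.79, adjusted p = 0.0442), without CD24medCD49f-/low replicate 2 (-0.95, adjusted p = 0.0130) and without Thy-1-CD24medCD49fhigh replicate 2 (-0.89, adjusted p = 0.0334), and differed by -0.45 without CD24medCD49f-/low replicate 1 (adjusted p = 0.243).

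Among channels opened by transmitters or ATP, P2rx7, an ATP-gated channel linked to inflammatory signalling, was higher in basal cells, from 0.10 through 0.47 to 1.08, against -1.34 and -0.42 in CD24medCD49f-/low and -0.74 and -0.62 in CD24highCD49fmed. The sides did not overlap, the difference was 1.30 ± 0.34 (adjusted p = 0.00226), and its 3 probe sets gave 1.26 to 1.37. Gria3, an AMPA-type glutamate receptor subunit, differed by 1.08 ± 0.33 (adjusted p = 0.00661) with no overlap. Grik3, a kainate-type subunit, differed by 0.45 (adjusted p = 0.294).

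In the chloride channel group 6 of 8 genes were lower in basal cells, Clic4 was higher and Ano1 was not called, with a median difference of -1.29. Over all features 41.3% were lower and 34.7% higher. Against CD24medCD49f-/low alone 4 of the 8 were called, beside 45.8% of all features. Clic6, of a family of proteins that occur both soluble and in membranes, ran from -1.63 through -0.94 to -0.34 on the basal arrays, and was 0.61 and 1.77 in CD24medCD49f-/low and 1.62 and 1.66 in CD24highCD49fmed. The difference was -2.36 ± 0.36 (adjusted p = 1.38e-05) without overlap, and its probe sets gave -1.17 and -3.54, so its size depends on the probe set. Clic4, of the same family, went the opposite way by 1.25 ± 0.33 (adjusted p = 0.00226), also without overlap.

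Clca genes encode secreted proteins that regulate calcium-activated chloride currents, and the 3 members lie in a single run of Clca genes on mouse chromosome 3, where Clca3a1 and Clca3a2 are neighbours. Clca3a2 ran from -2.02 through -0.84 to -0.03 on basal arrays, and was 1.55 and 0.83 in CD24medCD49f-/low and 1.41 and 1.52 in CD24highCD49fmed. It differed by -2.21 ± 0.36 (adjusted p = 2.77e-05) without overlap. Clca1 and Clca3a1 differed by -1.12 (adjusted p = 0.0104) and -1.06 (adjusted p = 0.00919), with overlap. These genes are close copies and can share hybridisation, so their values are uncertain as separate measurements, and 1 probe set that names both Clca3a1 and Clca3a2 was left out. Clcn3, a chloride-proton exchanger of endosomes, ran from -1.45 through -0.56 to 0.00 on basal arrays, and was 0.47 and 0.87 in CD24medCD49f-/low and 1.00 and 1.23 in CD24highCD49fmed. It differed by -1.49 ± 0.35 (adjusted p = 0.000967), with all 4 probe sets lower. Ano9, of the anoctamin family, differed by -1.46 ± 0.35 (adjusted p = 0.00130) with overlapping arrays. Its relative Ano1, the calcium-activated chloride channel of many secretory epithelia, was -1.10 and 1.32 on the CD24medCD49f-/low arrays and between -0.60 and 0.72 on the other 8. Its difference was 0.30 (adjusted p = 0.491), and it turned to -0.30 without replicate 1 of CD24medCD49f-/low and rose to 0.91 (adjusted p = 0.0141) without replicate 2, so no direction can be given.

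Of the water channels, Aqp5, the channel of the apical membrane of secretory glands, was lower in basal cells. It ran from -1.96 through -0.79 to 0.36 there, and was 0.88 and 1.55 in CD24medCD49f-/low and 1.10 and 1.47 in CD24highCD49fmed. The difference was -2.09 ± 0.39, or 4.25-fold (adjusted p = 0.000144), and the sides did not overlap. Aqp3, which passes water and glycerol and is known in basolateral membranes, did not divide by lineage and differed by 0.65 (adjusted p = 0.0653).

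The sodium-potassium pump was represented by both of its β subunits in the table and by a regulator, and the β subunits went opposite ways. Atp1b1 ran from -1.75 through -1.17 to 0.33 on the basal arrays, and was 0.75 and 1.39 in CD24medCD49f-/low and 1.68 and 1.58 in CD24highCD49fmed. Atp1b3 ran from 0.17 through 0.54 to 1.06 on the basal arrays, and was -1.69 and -0.91 in CD24medCD49f-/low and -0.42 and -0.59 in CD24highCD49fmed. Neither gene had overlapping arrays. Atp1b1 differed by -2.25 ± 0.41 (adjusted p = 9.82e-05), with all 4 probe sets between -2.77 and -1.72, and Atp1b3 by 1.50 ± 0.33 (adjusted p = 0.000620). Fxyd2, the γ subunit that tunes the pump, was lower by -1.11 ± 0.34 (adjusted p = 0.00636) without overlap, but it lost its call when CD24highCD49fmed replicate 1 was left out (-0.88, adjusted p = 0.0720).

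All 4 proton pump genes encode subunits of the cytoplasmic V1 sector, which splits ATP. Of these 3 were lower in basal cells (41.3% of all features) and Atp6v1h was not called. Against CD24medCD49f-/low alone only Atp6v1b1 was called (45.8% of all features). Atp6v1b1, the B subunit known from acid-secreting cells of the kidney, ran from -2.29 through -0.60 to -0.09 on basal arrays, and was 0.06 and 2.26 in CD24medCD49f-/low and 1.20 and 1.21 in CD24highCD49fmed. The difference was -1.97 ± 0.44 (adjusted p = 0.000627), with no overlap but a wide gap between the CD24medCD49f-/low arrays. Atp6v1c2 and Atp6v1c1, the alternative C subunits, differed by -1.02 ± 0.35 (adjusted p = 0.0122) and -0.84 ± 0.33 (adjusted p = 0.0287). Both overlapped. Atp6v1c1 lost its call when any of 5 single arrays was left out, and Atp6v1c2 when CD24highCD49fmed replicate 1 was. Atp6v1h, the regulatory H subunit, differed by -0.62 (adjusted p = 0.113), and by -0.75 with quantile normalisation, where it was called (adjusted p = 0.0379). Without replicate 1 of CD24medCD49f-/low it differed by -0.99 and was called (adjusted p = 0.00950), and without replicate 2 by -0.24 (adjusted p = 0.471).

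Each luminal population was also set against the mean of the basal populations. Against CD24highCD49fmed 37 of the 41 genes were called (74.7% of all features), and against CD24medCD49f-/low 25 were (45.8% of all features). Both comparisons use the same basal arrays. The 25 genes were called in the same direction against both (40.4% of all features). The 12 called against CD24highCD49fmed and not against CD24medCD49f-/low were Aqp3, Atp6v1c1, Atp6v1c2, Atp6v1h, Clca1, Clca3a1, Clic4, Gria3, Kcnj2, Kcnk5, Kcnma1 and Trpm7, which does not show that the luminal populations differ for them. For Atp6v1c2 basal cells differed by -1.95 from CD24highCD49fmed and by -0.09 from CD24medCD49f-/low, for Atp6v1h by -1.26 and 0.03, for Trpm7 by -1.34 and -0.06 and for Aqp3 by 1.58 and -0.28.

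The test between CD24highCD49fmed and CD24medCD49f-/low called none of the 41 genes (0.205% of all features), while 6 of them and 451 of all features had an unadjusted p under 0.05. The arrays did not overlap for 23 genes (56.1%, against 51.7%). CD24highCD49fmed held the highest mean of the 5 populations for 18 of the 41 genes and the lowest for 19, whereas CD24medCD49f-/low held the highest for 0 and the lowest for 4. The CD24highCD49fmed arrays also had the widest spread over all probe sets (SD 1.30 and 1.20, beside 1.11 and 0.94 in CD24medCD49f-/low). No share over all features is given for these extremes. The largest differences were those of Atp6v1c2, Aqp3 and Scn7a, none of them called. Atp6v1c2 was 2.17 and 0.91 in CD24highCD49fmed against -0.61 and -0.03 in CD24medCD49f-/low, a difference of 1.86 ± 0.54 (adjusted p = 0.121). Aqp3 was -1.16 and -1.48 against 0.53 and 0.54, a difference of -1.86 ± 0.49 (adjusted p = 0.0876). Scn7a differed by -1.57 ± 0.59 (adjusted p = 0.237).

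For Aqp3 the means were 0.81 in Thy-1+CD24medCD49fhigh, 0.54 in CD24medCD49f-/low, 0.36 in Thy-1-CD24medCD49fhigh, -0.39 in CD24medCD49fmed and -1.32 in CD24highCD49fmed, and the arrays of a population lay close together (SD within populations 0.18). The steps to CD24medCD49fmed and to CD24highCD49fmed were well over this spread, while that between CD24medCD49f-/low and Thy-1-CD24medCD49fhigh equalled it at these digits. The median of all features in this comparison was 0.34 toward CD24highCD49fmed. With array medians set to 0 it moved by -0.38, and Aqp3 then differed by -2.23 and was called (adjusted p = 0.0298). Aqp3 differed by -1.86 without replicate 1 and by -1.85 without replicate 2 of CD24medCD49f-/low. Without replicate 1, Ano1 differed by -1.79 and Trpm7 by 1.77, and without replicate 2 Atp6v1c2 differed by 2.15 and Atp6v1h by 2.03. Leaving out either array gives that population 1 array, which is assumed to vary like the others. Calls between the luminal populations in these fits are therefore not given.

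**Figure D4:**
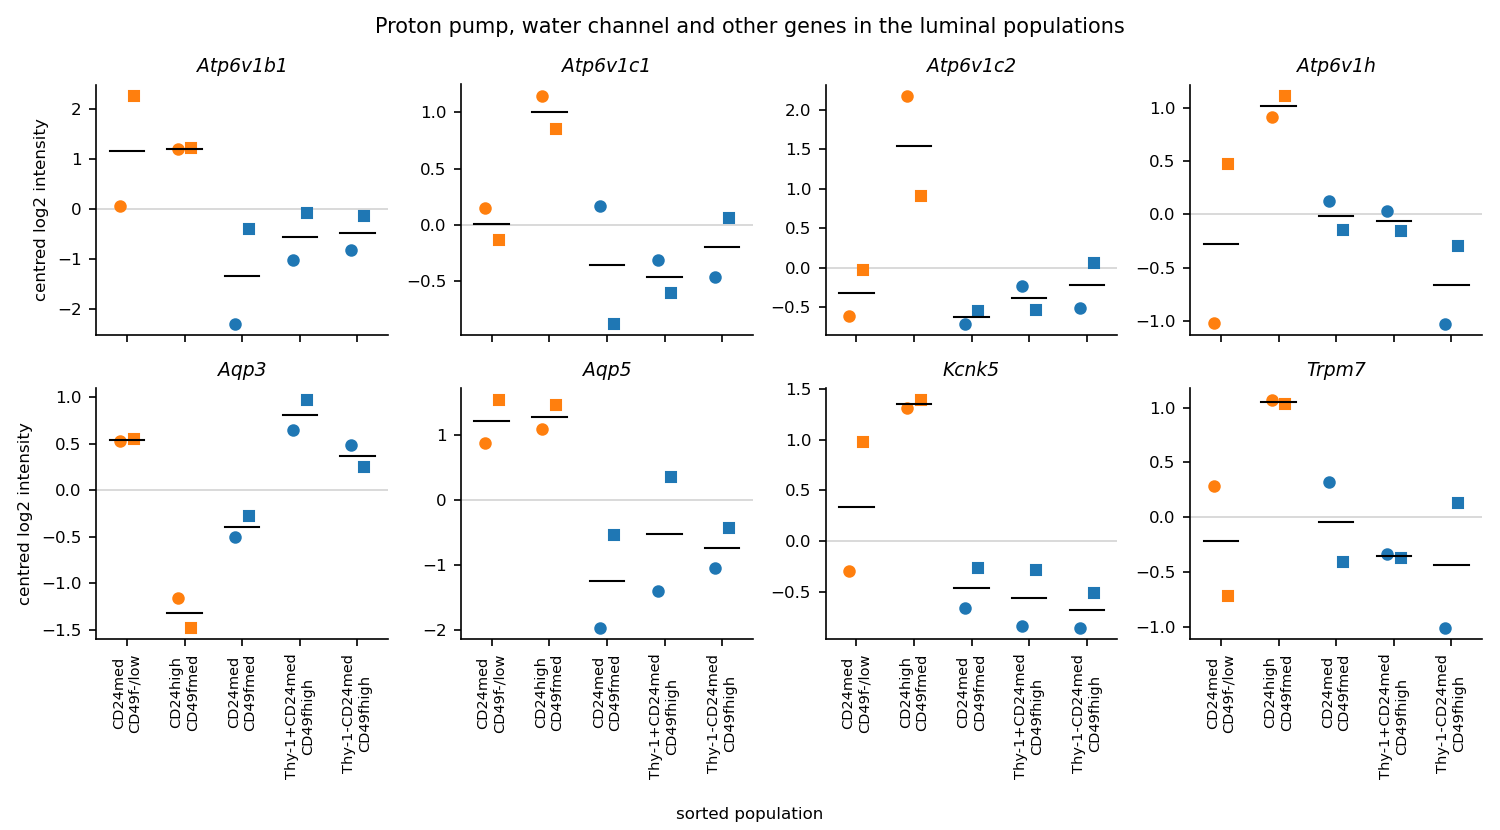
Centred log2 intensity of the 4 proton pump genes, both water channel genes, Kcnk5 and Trpm7 on each array, by sorted population, with luminal populations in orange and basal ones in blue. Circles and squares are the first and second array and bars their mean. The CD24highCD49fmed arrays are the highest of all for Atp6v1c1, Atp6v1c2, Atp6v1h, Kcnk5 and Trpm7 and the lowest for Aqp3.

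Thy-1+CD24medCD49fhigh and Thy-1-CD24medCD49fhigh cells, the comparison at the centre of the study, differed by no called channel or pump (0 of 41, against 0.0682% of all features). An unadjusted p under 0.05 was reached by 3 of the 41 genes and by 74 of all features. All 3 are potassium channels and all were higher in Thy-1+ cells. Differences were above 0 for 30 of the 41 genes and for 1907 of the 2932 features, whose median was 0.15. Of the 12 potassium channel genes 9 were above 0, with a median of 0.19. Kcna2 was 1.04 and 2.53 in Thy-1+ cells and -0.42 and -0.30 in Thy-1- cells, a difference of 2.14 ± 0.53 (adjusted p = 0.179). Kcna1 was 1.01 and 1.56 against -0.67 and -0.34, a difference of 1.79 ± 0.50 (adjusted p = 0.349). Kcnj8 was 0.73 and 1.04 against 0.04 and -0.55, a difference of 1.14 ± 0.54 (adjusted p = 0.9995). The sides did not overlap for these 3 genes, and for 9 of the 41 in all (22.0%, against 22.5% of all features). Trpc6 had the third largest difference, 1.31 (adjusted p = 0.9995), with arrays that overlapped, and it turned to -0.15 without Thy-1+ replicate 2.

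Several marker lists moved with Kcna1, Kcna2 and Kcnj8 across the basal populations. In CD24medCD49fmed Kcna1 was 1.31 and 1.11 and Kcna2 was 0.57 and 0.47, above both Thy-1- arrays. So were the means of the Schwann cell, pericyte, fibroblast and epidermal keratinocyte lists given above. The epidermal means were unequal within a population, at 1.67 and -0.01 in CD24medCD49fmed and 2.19 and 0.02 in Thy-1+ cells. Ngfr of the Schwann cell list differed by -0.16 between Thy-1+ and Thy-1- cells. Kcnj8 was highest on the 2 Thy-1+ arrays, as were the means of the pericyte and fibroblast lists, and Col3a1 of the fibroblast list was the only listed marker called between Thy-1+ and Thy-1- cells (3.29, adjusted p = 0.00389). The part of such cells in these differences was not tested. Kcna2 was called when only the 4 arrays compared were fitted (adjusted p = 0.0297), a fit for which no share over all features is given. Its difference stayed at 2.14 without either array of CD24medCD49f-/low, a population outside this comparison whose arrays add to the common spread. With replicate 1 of both CD24medCD49f-/low and Thy-1+CD24medCD49fhigh left out Kcna2 differed by 2.89. Thy-1+ cells then rest on 1 array, the higher one, whose spread is taken from the other populations.

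**Figure D5:**
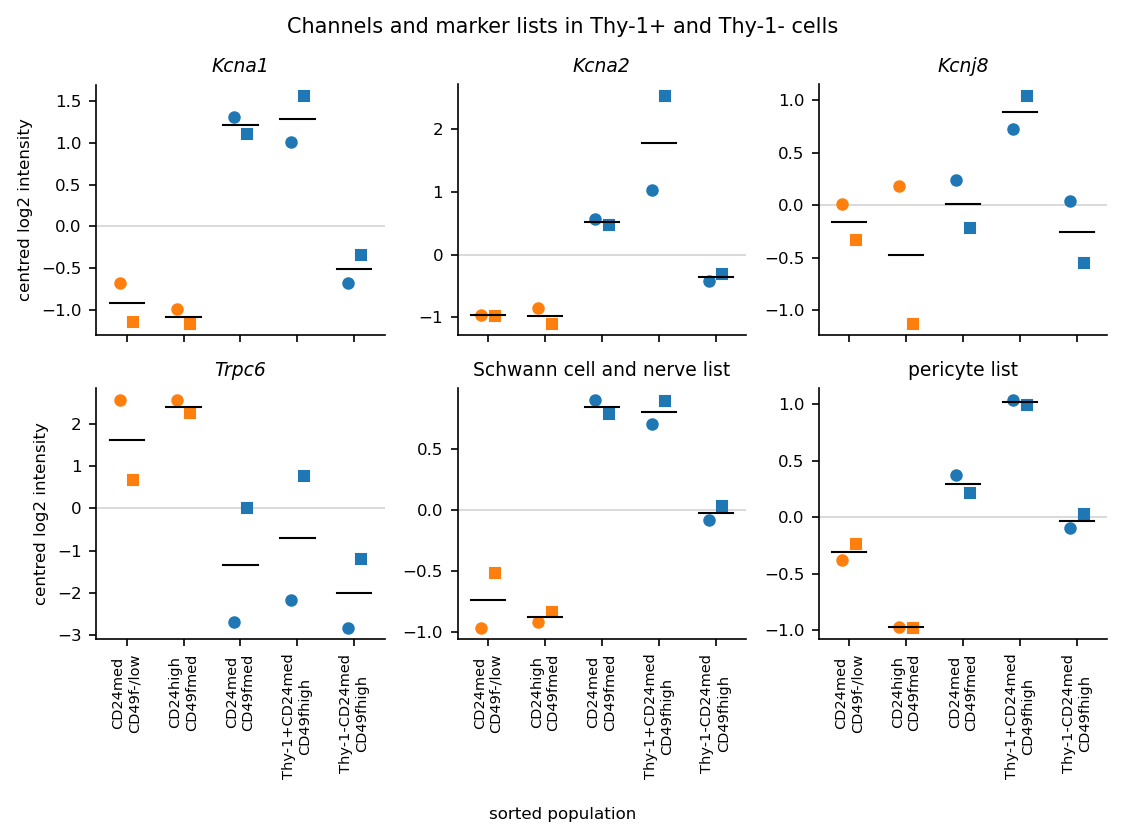
Centred log2 intensity of Kcna1, Kcna2, Kcnj8 and Trpc6, and the mean over the genes of the Schwann cell and nerve list and of the pericyte list, on each array by sorted population, with luminal populations in orange and basal ones in blue. Circles and squares are the first and second array and bars their mean. Kcna1, Kcna2 and the Schwann cell list are higher in CD24medCD49fmed and Thy-1+ arrays than in Thy-1- arrays, and Kcnj8 and the pericyte list are highest on the Thy-1+ arrays.

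CD24medCD49fmed against the mean of the CD24medCD49fhigh populations gave no call among the 41 genes either (0.0341% of all features), with an unadjusted p under 0.05 for 1 of them and 52 of all features. The largest differences were those of Kcnn4 (-0.99), Aqp3 (-0.98) and Clca1 (-0.86), all with an adjusted p of 0.9995. Aqp3 was -0.50 and -0.28 in CD24medCD49fmed and between 0.24 and 0.97 on the 4 CD24medCD49fhigh arrays, so that its sides did not overlap, which held for 2 of the 41 genes (4.88%, against 7.13% of all features). Kcnn4 was -2.10 and -1.34 against -1.89 to 0.30, and Clca1 was -1.40 and -0.65 against -1.23 to 0.49, both with overlap.

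Within the basal populations 3 arrays lay further from the luminal cells for a number of genes, namely CD24medCD49fmed replicate 2, Thy-1+CD24medCD49fhigh replicate 1 and Thy-1-CD24medCD49fhigh replicate 1. For the 18 genes higher in basal cells they were above their partners for 14, 15 and 9, the Thy-1- arrays thus dividing evenly, and for the 16 lower genes they were below their partners for 12, 11 and 13. All 3 were above the other 3 basal arrays for 7 of the 18 genes higher in basal cells, namely Scn7a, Cacna1c, Cacna2d1, Cacnb4, Kcnma1, Kcnmb1 and Kcnj2, and below for 0 (16.9% and 0.787% of the 1017 features higher in basal cells). They were below the other 3 for 7 of the 16 genes lower in basal cells, namely Aqp5, Atp1b1, Atp6v1b1, Clcn3, Clic6, Kcnk5 and Trpc6, and above for 0 (20.8% and 0.992% of the 1210 features lower in basal cells). The mean of the luminal markers moved with them, at -2.15, -1.21 and -1.16 on those arrays and at -0.37, 0.29 and -0.31 on the others. The basal marker mean was 1.68, 1.93 and 1.61 against 1.35, 0.99 and 1.00. This split was seen in the data and not planned, and the part of luminal cells in it was not tested.

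Other genes of ion transport were taken from a list of 125 regulators, cotransporters, exchangers and channels of other families, of which 20 were in the table. In basal minus luminal 6 were higher and 10 were lower, 16 of 20 against 76.0% of all features, with a median difference of -0.66, and none was called in the other comparisons. Those highest in basal cells were Lrrc8c, a subunit of the volume-regulated anion channel (1.84), Car12, a membrane carbonic anhydrase (1.79), and Ttyh1 and Ttyh2 of the tweety family (1.38 and 1.30). Those lowest were Slc12a2, the sodium-potassium-chloride cotransporter of secretory epithelia (-1.74), Atp11a, a lipid flippase (-1.68), Piezo2, a stretch-gated channel (-1.57), and Car2, a cytoplasmic carbonic anhydrase (-1.37).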

How the data were processed

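The authors hybridised RNA labelled in 2 cycles to Affymetrix GeneChip mouse genome arrays, normalised all arrays together (RMA per the methods, while the labels name RMA and GCRMA, without versions) and dropped probe sets below a minimum level or without a 4-fold range. The deposited values are log2 intensities centred per probe set (smallest range 2.00, largest absolute mean 3e-07). Higher means more signal, and the level was removed by the centring. Array medians, in the order CD24medCD49f-/low, CD24highCD49fmed, CD24medCD49fmed, Thy-1+ and Thy-1-CD24medCD49fhigh, were -0.43 and -0.07, 0.08 and 0.17, 0.05 and 0.08, 0.14 and 0.05, and -0.23 and 0.07. With 2 arrays a population, precision is limited by their number.

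Of the probe sets 3291 had 1 symbol, 75 several and 297 none in the platform annotation. Values were averaged per gene (14 of the 41 members had more than 1 probe set, all called and of the same direction in basal minus luminal), which with the remaining probe sets gave 2932 features. One mean per population was fitted to all 10 arrays with limma 3.58.1 in R 4.3.3 (lmFit, eBayes, 5 residual and 16.5 prior degrees of freedom). Tests were two-sided with Benjamini-Hochberg adjustment over all features of a comparison, and called at an adjusted p under 0.05. The 4 comparisons come from 1 fit and share its variances. Rank products, the test of the study, was not used here.

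The members and lists were chosen with earlier results of these data known. Values by array were given for the 8 largest called differences on each side among genes without overlap of arrays, for the 3 largest in comparisons with fewer than 3 calls, for the leading gene of a class without any of these, and for up to 4 other ion transport genes in each direction without array values. Further genes were added after their values were seen. Alternatives were other scalings of the arrays, robust variances, a replicate block, only the arrays compared, a minimum log2 difference of 1, separate probe sets, each luminal population alone and each array left out. Leaving out replicate 1 of CD24medCD49f-/low and of Thy-1+CD24medCD49fhigh together was chosen after seeing the data.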

Additional observations from a re-analysis of the deposited data

How the results depend on the processing

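In basal minus luminal the number of the 41 genes called moved little from 34 with the scaling of the arrays. Setting array medians to 0 gave 35 and quantile normalisation 34. The number depended more on the luminal population, with 37 against CD24highCD49fmed alone and 25 against CD24medCD49f-/low alone. The share of all features called moved too, from 76.0% to 74.7% and 45.8%. Against CD24medCD49f-/low alone the potassium channels went from 11 called to 8, the chloride channel group from 7 to 4 and the proton pump genes from 3 to 1. Transmitter- and ATP-gated channels went from 2 to 1. Deviations of same-numbered arrays correlated at 0.505 between the luminal populations and 0.314 between Thy-1+ and Thy-1- cells, but at -0.177 to 0.075 across lineages, so a pairing of all samples by number was not taken as given. The replicate block gives replicate 3, which only CD24medCD49fmed has, a term of its own. That population then rests on its replicate 2 alone, so calls of this fit are not given. In it Atp6v1c1 differed by -0.65, Clca3a1 by -0.84 and Grik3 by 0.88. The median of all features moved by up to -0.09 in this comparison with the scaling of the arrays, by -0.38 in CD24highCD49fmed minus CD24medCD49f-/low and by -0.19 in Thy-1+ minus Thy-1- cells. In CD24highCD49fmed minus CD24medCD49f-/low the count of 0 became 1 with array medians set to 0. In Thy-1+ minus Thy-1- cells the count of 0 became 1 with only the arrays compared. No share over all features is given for these alternatives. Both counts also moved in some fits with an array left out, and without replicate 1 of both CD24medCD49f-/low and Thy-1+CD24medCD49fhigh. A population then rests on 1 array, so those counts are not given. Other genes of ion transport called in basal minus luminal fell from 16 to 8 against CD24medCD49f-/low alone, where 45.8% of all features were called. Differences that turned were those of Ano1 (-0.012 with quantile normalisation, -0.30 to 0.91 with an array left out and -0.44 without both arrays), of Aqp3 and Atp6v1h against CD24medCD49f-/low alone (-0.28 and 0.027), and of Trpc6 between Thy-1+ and Thy-1- cells (-0.15 to 2.77 with an array left out, the lowest without Thy-1+ replicate 2). The cause was not tested. With the centred values no level over background can be read, and genes outside the 4-fold range were not analysed here.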
